A study of Homo sapiens with 8 samples.

Results

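IGROV-1 is an established human ovarian carcinoma line, and its baseline expression was described here in cells grown in the peritoneal cavity of mice that received saline and no oligonucleotide. The 4 arrays labelled saline 1 to saline 4 were taken, out of 8 arrays in the study, and on them the probes with a deposited detection p-value under 0.05 on all 4. Of 48797 probes, 15649 (32.1%) met that rule, 23448 (48.1%) met the threshold on no array, and 5777, 2333 and 1590 met it on 1, 2 and 3 arrays. Every comparison below is among genes of these cells or among these 4 arrays, and none is with the arrays of oligonucleotide-treated mice.

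The line was kept by passage of ascitic cells from mouse to mouse. Per the labels, each mouse received 2500000 such cells in 0.2 ml, and saline was given into the peritoneal cavity from 10 to 11 days later, in a group of 4 mice. Cells were taken 24 hours after the last administration. They are called ascites cells in the working name of the group, but the study's design text states that the material collected was tumor cells adhering to the peritoneal wall, so they are called peritoneal tumor cells here. The labels give neither the strain nor the age of the mice. The text mentions a schedule of 3 daily doses and a schedule of 1 without saying which arrays belong to which, and arrays are not linked to single mice. The 4 arrays are therefore separate samples of 1 group whose spread may hold animal, dissection, schedule and array differences together.

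Total RNA was measured on a 1-colour Illumina bead array of human probes, each a short oligonucleotide carried on many beads. The detection p-value sets a probe's signal against the negative-control beads of its array. A probe's level is given here as its percentile, the share of all probes on the same array with a lower or equal signal, so that 100 is the brightest. Percentiles order signals, and since a signal also depends on how well a probe binds, they do not order transcript numbers between genes. A gene is represented by its probe with the highest mean percentile, it counts as detected when at least 1 of its probes passed on all 4 arrays, and it is called not above background when no probe passed on any. The annotation used here names 1 gene for 28093 probes, several genes for 13 and none for 20691, and the named probes cover 18852 genes. Of these, 10169 (53.9%) were detected on all 4 arrays, 2809 on some, and 5874 (31.2%) on none. Genes with more probes were detected more often: 49.4% of genes with 1 probe, 60.9% with 2 and 68.0% with 3 or more. Probes of a gene could disagree. Of 597 detected genes of the gene lists used here, 262 had 2 or more probes, and for 83 of these at least 1 probe was above background on no array.

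The mean signal was 1079, 896, 906 and 876 on saline 1 to 4, and 19055, 18784, 19856 and 20114 probes passed the threshold. The arrays were alike, with pairwise Pearson correlations of log2 signal over the detected probes between 0.988 and 0.993, where all probes share the arrays' chemistry and probe binding. Signals reached about the same ceiling on each array, between 69717 and 71826, and 50 probes had a mean above 60000. The order among those brightest probes is compressed and is not resolved.

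The brightest named genes of the peritoneal tumor cells were mostly those of protein synthesis, the cytoskeleton and glycolysis. Of the 100 brightest probes, 39 had no single named gene in the annotation and are left out of this ranking. EEF1A1, a translation elongation factor, RPL41 and RPS12, ribosomal proteins, ACTG1 and ACTB, cytoplasmic actins, TMSB10 and TMSB4X, actin-binding thymosins, TPT1 and the glycolytic enzyme GAPDH all had mean percentiles of 99.9 or more. Of the 100 brightest named genes, 36 were cytosolic ribosomal proteins. Of 69 named ribosomal protein genes, 68 (98.6%) were detected, against 53.9% of all named genes. The median percentile of the list was 99.7, against 70.8 for all named genes. The 1 exception, RPL10, was not above background with either of its 2 probes. The other 2 genes of the 8 brightest rested on 1 bright probe each. LAIR1, an inhibitory receptor of immune cells, was at 99.96 by 1 probe and at 65.0 by its other. SLC7A5P2, a pseudogene of an amino acid transporter, was at 99.96 by 1 of its 3 probes. A pseudogene and its parent share sequence, so their transcripts cannot be told apart here.

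Lineage was read first from transcription factors of the Müllerian tract and the ovary. PAX8 and SOX17 are factors of the secretory cells of the fallopian tube and are kept in many ovarian carcinomas, WT1 marks serous carcinoma, and ESR1 and PGR encode the estrogen and progesterone receptors. Of 16 named factors, 4 were detected, 2 were detected on some arrays and 10 were not above background, where 53.9% of all named genes were detected and 31.2% were not above background. MECOM, a zinc-finger factor amplified in many ovarian tumors, was at 97.3, 97.6, 97.7 and 97.6 on saline 1 to 4 by 1 of its 2 probes, while the other was above background on no array, at a mean of 16.7. PAX8 was at 97.1, 97.3, 97.4 and 97.4, and all 3 of its probes were detected. SOX17 was at 88.8, 89.7, 89.0 and 89.8, and MEIS1, a HOX cofactor, was lower at a mean of 73.1. The bright factors were thus bright on every array, with an SD of log2 signal of 0.05 for PAX8, 0.09 for MECOM and 0.10 for SOX17, all below the 0.188 median of detected genes. The dimmer MEIS1 had an SD of 0.40, above that median.

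The factors not above background were WT1, ESR1, PGR, PAX2, EMX2, FOXA2, GATA4, GATA6, NR5A1 and TCF21. ESR1 was at percentiles of 5.0, 32.4, 16.9 and 4.4 by its only probe, and WT1 was at 33.2, 6.8, 21.3 and 48.6 by the brighter of 2. Values this far down lie among the probes not above background, and their order between arrays is not read. FOXL2 and LHX2 passed on 1 array each, which the threshold allows for background probes.

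Surface and secreted markers of ovarian carcinoma were bright. Of 30 named, 24 (80.0%) were detected, against 53.9% of all named genes, 5 were detected on some arrays and only KLK8 was not above background. The median percentile of the list was 92.1, against 70.8 for all named genes. CD24, a mucin-like adhesion protein, was at 99.8, 99.8, 99.9 and 99.8, and SPP1, the secreted matrix protein osteopontin, was at 99.7, 99.9, 99.7 and 99.9. MUC1, a membrane mucin, averaged 99.6 ± 0.07 (SD, n = 4), with all 3 probes detected. EPCAM, an epithelial adhesion molecule, was at 98.96, 99.14, 98.80 and 99.16. These 4 genes were the members above the 99th percentile, and both or all of their probes were detected.

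FOLR1, the folate receptor used as a drug target in ovarian cancer, was at 98.5, 98.5, 98.6 and 98.8. Its 3 probes averaged 98.6, 98.4 and 75.5, which shows how far probes of 1 gene can lie apart. MSLN, the adhesion protein mesothelin, averaged 98.2 ± 0.14 (SD, n = 4), and the protease inhibitors SPINT2 and SLPI averaged 98.8 and 98.3. MUC16, the mucin that carries the serum antigen followed in ovarian cancer, was lower at 88.8, 86.6, 88.0 and 86.2. The stem-cell-associated markers CD44, ALDH1A1 and PROM1 were detected at 98.7, 96.1 and 94.9, ALCAM at 97.6 and F3, tissue factor, at 96.5. Members at the lower end of the detected range were MUC4 at 73.6 by 1 of 4 probes, VTCN1 at 70.4 and BCAM at 70.2. CLDN4, KLK6, KLK7, CDH6 and SLC34A2 each passed on 1 array.

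**Figure D1:**
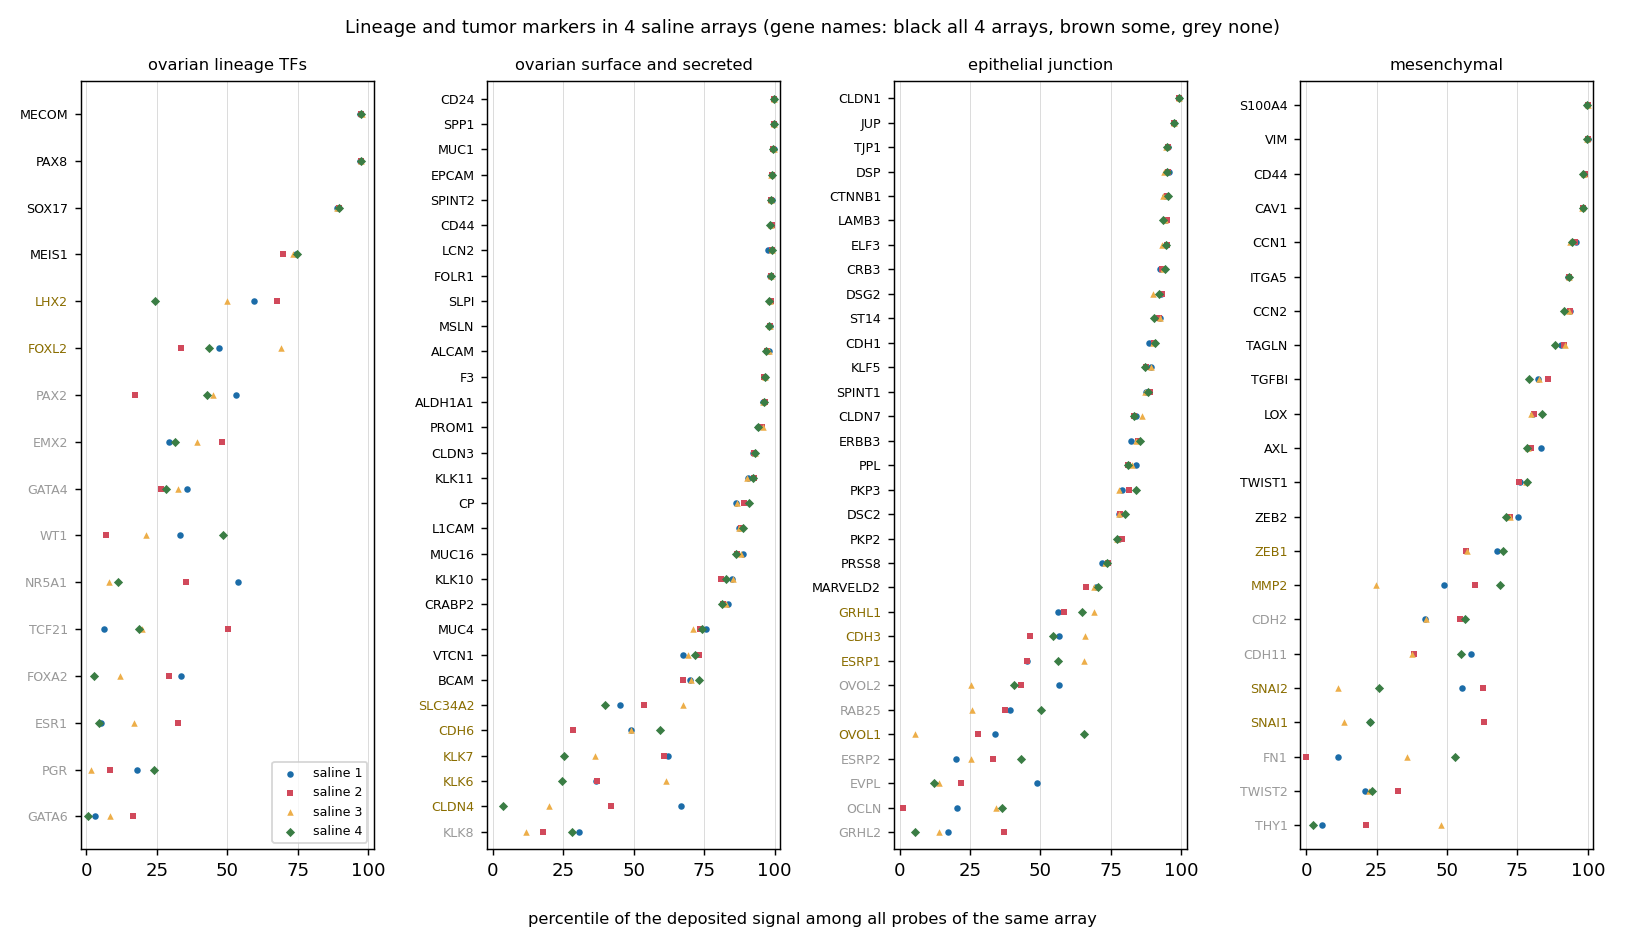
Percentile of the deposited signal (horizontal axis, 100 brightest) on each of the 4 saline arrays (points) for 4 marker lists, 1 gene a row in order of the mean. Genes detected on all 4 arrays, in black, lie in tight groups of points at the right, such as PAX8 near 97.3 and EPCAM near 99.01, while those not above background, in grey, such as WT1 and ESR1, scatter over the lower part of the scale.

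Some epithelial and some mesenchymal markers were both detected. Of 31 named epithelial junction and differentiation genes, 21 (67.7%) were detected and 6 were not above background. Of 22 named mesenchymal genes, 13 (59.1%) were detected and 5 were not, a share near the 53.9% of all named genes. CLDN1, a tight-junction claudin, was at 99.10, 99.26, 99.12 and 99.03, JUP, plakoglobin, averaged 97.4, TJP1 95.1, the desmosomal plaque protein DSP 94.9 and the epithelial transcription factor ELF3 94.3. CDH1, E-cadherin, was at 88.7, 90.3, 89.8 and 90.8. On the mesenchymal side S100A4 and VIM, the intermediate filament vimentin, both averaged 99.9, CAV1, the coat protein of caveolae, averaged 98.2, and CCN1 and CCN2, matricellular proteins, averaged 94.9 and 93.1. CDH2, N-cadherin, and FN1, fibronectin, were not above background on any array, with 1 and 3 probes. Of the transition factors, TWIST1 was detected at 77.0 and ZEB2 at 72.7 by 1 of 2 probes, ZEB1 on 2 arrays, and SNAI1 and SNAI2 on 1 each. Of the epithelial junction and differentiation genes, OCLN, ESRP2, GRHL2, OVOL2, RAB25 and EVPL were not above background.

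Keratins are the intermediate filaments of epithelia. Of 31 named, 13 (41.9%) were detected and 16 (51.6%) were not above background, against 53.9% and 31.2% of all named genes. The simple-epithelium keratins KRT19, KRT7, KRT8 and KRT18 averaged 99.6, 97.8, 95.7 and 81.4. Stratified-epithelium keratins were split, with KRT5 and KRT14 not above background and KRT10, KRT13, KRT15 and KRT16 detected. The intestinal keratin KRT20 was not above background. KRT24, and KRT25, a keratin of the hair follicle, were at 99.5 and 96.5 by 1 probe each, with SDs of log2 signal of 0.11 and 0.17, so the bright signal was shared by all 4 arrays. KRT10, KRT80, KRT13, KRT15, KRT23, KRT34 and KRT16 were also detected, at percentiles of 63.4 to 95.1, and KRT6A, KRT6B and KRT17 are not named here.

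Claudins and cadherins join epithelial cells. Of 22 named claudins, 12 (54.5%) were detected, a share near the 53.9% of all named genes, led by CLDN1, CLDN16 at 94.4 with all 3 probes, CLDN3 at 92.8 and CLDN23 at 92.1, and CLDN5, CLDN6, CLDN8, CLDN9, CLDN10 and CLDN22 were not above background. Of 21 named cadherins 4 were detected, a smaller share, namely CDH1, CDH16 at 87.8, the endothelial cadherin CDH5 at 83.4 and CDH7 at 66.9 by 1 of 3 probes. CDH16 is the cadherin of kidney and thyroid epithelium. Of 12 named mucins 4 (33.3%) were detected, MUC1, MUC16, MUC21 at 76.6 and MUC4, as were 2 of 16 kallikrein proteases, KLK11 at 91.4 and KLK10 at 83.4. MUC21, KLK11 and KLK10 each rested on 1 of 2 probes.

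HOX genes encode the factors that set position along the body axis. Of 29 named, 13 (44.8%) were detected and 11 (37.9%) were not above background, against 53.9% and 31.2% of all named genes. The brightest were 3 members of the HOXB cluster, HOXB7 at 96.3, 96.5, 97.2 and 97.0, HOXB8 at 94.2, 95.2, 94.1 and 95.7, and HOXB5 at 92.0, 91.9, 94.1 and 92.4. HOXB6 was at 81.4 and HOXD8 at 81.9, and the other detected members lay between 68.5 and 78.5. HOXB9 and HOXB13 were not above background, nor were 7 of the 9 named HOXC genes, and most HOXA genes are not named here.

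Receptor tyrosine kinases, through which growth factors signal, were detected for 19 (35.8%) of 53 named members, with 15 on some arrays and 19 not above background, where 53.9% of all named genes were detected. FGFR3, a fibroblast growth factor receptor, averaged 97.5 by 1 of its 2 probes, and the other passed on 2 arrays. ERBB2 averaged 95.6 by 1 probe while its 2 other probes were not above background. MET, the receptor of hepatocyte growth factor, averaged 93.4 by its only probe, and EGFR averaged 82.7 with 2 of 4 probes detected. IGF1R, KIT, FLT3, FGFR2 and NTRK2 were not above background. Of 40 named nuclear receptors, 19 (47.5%) were detected, led by RXRA at 91.5, NR2F6 at 90.6 and PPARG, the adipogenic receptor, at 89.7 with 2 of 4 probes. Another 19 were not above background, among them ESR1, ESR2 and PGR. Of 10 Toll-like receptors, the sensors of microbial molecules, TLR3 alone was detected, at 77.3, 77.9, 77.7 and 76.6 by both probes. TLR5 passed on 3 arrays and TLR1 on 1. TLR9, the sensor of unmethylated CpG DNA, was not above background, at 13.2, 40.7, 50.7 and 11.3 by its only probe.

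Of 30 named oncogenes, 22 (73.3%) were detected, against 53.9% of all named genes. BCL2L1, an inhibitor of cell death, averaged 99.3 and CCND1, cyclin D1, 99.2. HMGA1, a chromatin protein, averaged 99.02 by 1 probe, while its 2 other probes were above background on no array, at means of 24.2 and 23.6. The kinase AKT1 averaged 98.2 with 2 of 3 probes detected, and the other passed on no array. Of 28 named tumor suppressors, 22 (78.6%) were detected, led by the phosphatase scaffold PPP2R1A at 99.01, the cell-cycle inhibitor CDKN1A at 96.7, and the chromatin remodelers SMARCA4 at 96.5 and ARID1A at 94.7. The other probe of ARID1A was above background on no array, at a mean of 15.9. BRCA1 was at 76.3 with both probes. ARID1B, APC and DAB2 were not above background. An expression signal says nothing about mutation. Cancer-testis antigens, proteins of the germ line that some tumors regain, were mostly not detected. Of 34 named, 5 (14.7%) were detected, PRAME at 90.3, 90.1, 90.2 and 90.4 with 2 of 3 probes, MAGEA1 at 89.9, CTAG2 at 87.3 by 1 of 2 probes, SPA17 at 83.1 and MAGEB2 at 80.3, and 18 were not above background. Members of the MAGE and CTAG families are near-identical, so probes may share their transcripts.

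**Figure D2:**
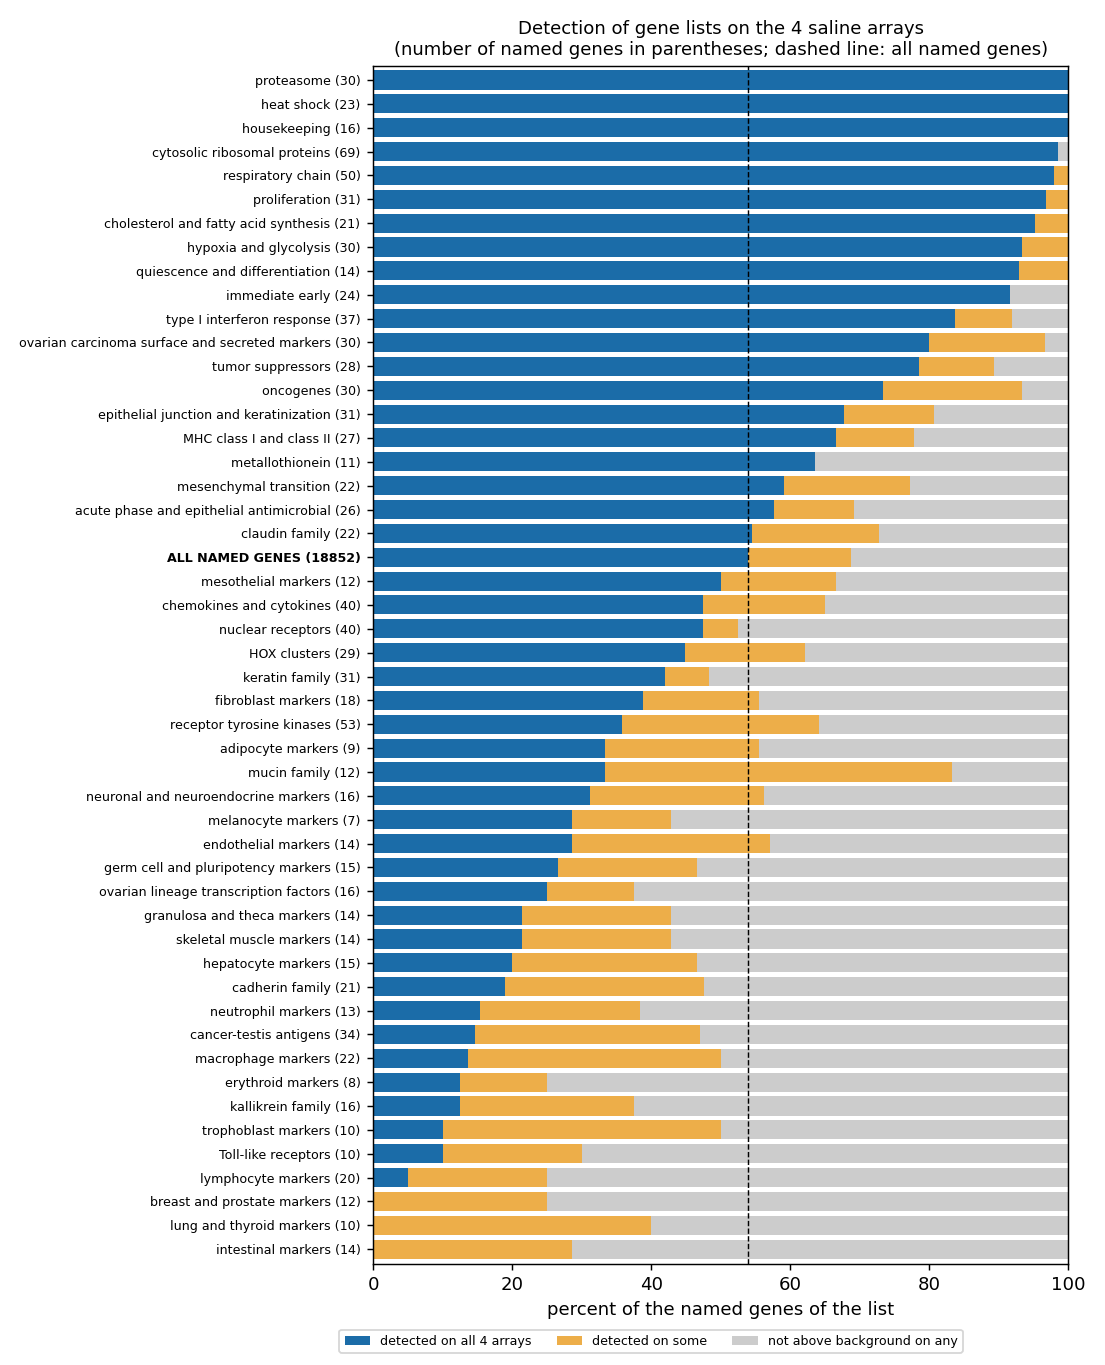
Percent of the named genes of each of 49 lists (rows, number of named genes in parentheses) that were detected on all 4 saline arrays, on some, or on none. The dashed line marks the 53.9% of all 18852 named genes, and the lists run from the fully detected proteasome, heat shock and housekeeping genes to intestinal, lung and breast markers with no gene detected on all 4.

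The machinery of growth was detected nearly in full. Of 31 named proliferation genes, 30 (96.8%) were detected, against 53.9% of all named genes, and E2F1 passed on 1 array. MCM3, a helicase subunit, was at 98.7, CDC20, an activator of mitotic exit, at 98.6, the ubiquitin-conjugating enzyme UBE2C at 98.1, the thymidylate synthase TYMS at 98.1 and PCNA at 97.1, while MKI67 lay at 78.9 by its only probe. All 30 named proteasome genes, all 23 heat shock genes, 49 of 50 respiratory-chain genes and 20 of 21 genes of cholesterol and fatty acid synthesis were also detected. Lists of such genes are detected in most growing cells, and nothing here sets these cells apart from others.

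Genes of glycolysis and the hypoxia response stood high as a group. Of 30 named, 28 (93.3%) were detected, against 53.9% of all named genes. The median percentile of the list was 96.9, against 70.8 for all named genes. LDHA, lactate dehydrogenase, and ENO1, enolase, averaged 99.9, BNIP3, a mitochondrial protein of the hypoxia response, 99.1, the glucose transporter SLC2A1 98.7 and ADM, the peptide adrenomedullin, 98.3. PFKFB4 and ANKRD37, targets of the hypoxia-inducible factors, averaged 95.7 and 95.9. VEGFA, the angiogenic factor, averaged 86.3 with 2 of 3 probes, and CA9 is not named here. Without cells grown at a known oxygen level there is no reference against which to read these values.

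Of 37 named interferon-response genes, 31 (83.8%) were detected and 3 (8.1%) were not above background, against 53.9% and 31.2% of all named genes. IFITM3, an antiviral membrane protein, averaged 99.6, IFI6 97.9, ISG15, a ubiquitin-like protein, 92.3 and MX1, an antiviral GTPase, 91.4, and IFI44L, MX2 and SAMD9L were not above background. Of the antigen-presentation genes, B2M at 99.2, HLA-B at 97.8 and TAP1 at 95.04 belong to class I. Class II was uneven. HLA-DMB, a chaperone chain of class II loading, was at 99.4, 99.6, 99.6 and 99.6 by its only probe, and its partner HLA-DMA was at 94.4, 95.8, 96.5 and 97.5. The peptide-presenting chains HLA-DRB1, HLA-DPA1, HLA-DPB1 and HLA-DQB1 and the class II activator CIITA were not above background, and CD74, the invariant chain, and HLA-DRA passed on some arrays. HLA-DMA and HLA-DMB were thus the only class II genes among those named here that were detected on all 4 arrays.

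Cytokines were led by MIF at 99.8 and IL18 at 99.4. The neutrophil-attracting chemokines CXCL8, CXCL1 and CXCL2 averaged 95.6, 91.8 and 87.7, CCL20 averaged 90.3, IL6 88.9 and TNF 87.3. Of 40 named members, 19 (47.5%) were detected and 14 (35.0%) were not above background, near the 53.9% and 31.2% of all named genes, including the interferon-induced CXCL9, CXCL10 and CXCL11. Of 26 genes of the acute phase and of epithelial antimicrobial defence, 15 (57.7%) were detected, likewise near the share of all named genes, led by the iron-sequestering LCN2 at 98.6, SLPI at 98.3, the defensin DEFB1 at 98.1, the elastase inhibitor PI3 at 92.7 and PIGR, the carrier of secreted antibodies, at 91.1.

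Markers of other cells were examined because tissue of the peritoneal wall and the mouse host could add RNA. The probes are human and the host is a mouse, so a mouse transcript would be seen only where it binds a human probe, and its part in these values was not tested. The shares below are to be read against the 53.9% of all named genes that were detected. Of 22 macrophage markers, CD68 at 97.0, AIF1 at 88.2 and C1QA at 72.9 were detected (13.6%), 8 passed on some arrays, and 11 were not above background, among them the pan-leukocyte gene PTPRC with 4 probes and the macrophage receptor CD163 with 3. CD68, a lysosomal protein, was detected with all 3 probes, but AIF1 rested on 1 of 2, the other being above background on no array at a mean of 18.5. Of 20 lymphocyte markers, CD79B was detected (5.0%) and 15 were not above background, and of 13 neutrophil markers S100A9 and FCGR3B were detected (15.4%). Of 14 endothelial markers 4 (28.6%) were detected, with CDH5 at 83.4 the brightest. Of 18 fibroblast markers 7 (38.9%) were detected, led by S100A4, the elastic-fibre protein MFAP5 at 97.7 and ACTA2, smooth-muscle actin, at 93.7. The collagens COL1A2, COL3A1 and COL6A3, with LUM, POSTN and DPT, were not above background. Of 12 mesothelial markers 6 (50.0%) were detected, a share near that of all named genes. They included MSLN at 98.2, LRRN4 at 85.9, BNC1 at 72.3 and UPK3B at 69.6. BNC1 and UPK3B each had another probe above background on no array. WT1, PDPN, KRT5 and UPK1B were not above background. Whether carcinoma or mesothelial cells gave these signals was not tested. Of 14 skeletal muscle markers 3 (21.4%) were detected, with MYH4 at 80.5 the brightest.

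Hemoglobin gave a mixed sign. HBA2, an alpha-globin chain, was at 98.6, 97.6, 95.3 and 98.4 by 1 probe, while its other probe averaged 55.6 and passed on 1 array, and the beta-globin HBB was not above background at a mean of 44.1. Of 8 named erythroid markers, HBA2 alone was detected and 6 were not above background. Few markers of other human tissues were detected. No intestinal marker of 14, no lung or thyroid marker of 10 and no breast or prostate marker of 12 was detected on all 4 arrays. Of 15 hepatocyte markers 3 were detected. Of 16 neuronal markers 5 were, with TUBB3, a tubulin, at 96.6 and the enolase ENO2 at 94.2, and of 15 germ cell and pluripotency markers 4 were, with SOX2 at 84.6 and POU5F1 at 74.3. Of 9 named adipocyte markers 3 (33.3%) were detected. CFD, the adipocyte protease adipsin, was at 96.6 on average and PPARG at 89.7. LEP, leptin, was at 83.1 by 1 probe, while its other probe was above background on no array. PLIN1, FABP4, CIDEC and LPL were not above background.

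Genes detected on all 4 arrays also differed from the others in a feature the rule did not use, the sequence before their start site. CpG-rich promoters belong to many genes that are active in most cell types, and CpG-poor ones to many tissue-restricted genes. RefSeq windows of 300 bases, 250 before and 50 after the start site on GRCh38.p14, were matched by symbol for 8353 of the 10169 detected genes and 4417 of the 5874 not above background. The median number of CpG dinucleotides was 26 in detected genes and 8 in those not above background, against 14 over all 27305 windows, and the median GC content was 65.3%, 56.0% and 58.3%. The motif TATAAA, looked for as these letters on either strand, stood in 5.47% of windows of detected genes and 15.98% of those not above background. It stood in 11.95% of all windows, which include windows of genes not named here. In the 242 windows of genes with a mean percentile of 99 or more the share was 11.57%, near that of all windows. The share of genes detected was 17.5% with 0 to 4 CpG, 30.3% with 5 to 9, 56.3% with 10 to 19, 72.8% with 20 to 29 and 73.0% with 30 or more. These are counts over genes, which are not independent samples, and a match is a description of the letters and not of a site in use.

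The windows of 4 genes named above are printed to show windows with many and with few CpG, with every CpG in capitals: CLDN1 at chr3:190322397-190322696 on the minus strand with 31 CpG, CDC20 at chr1:43358731-43359030 on the plus strand with 28, LCN2 at chr9:128149203-128149502 on the plus strand with 6, and ESR1 at chr6:151656422-151656721 on the plus strand with 4.
CLDN1: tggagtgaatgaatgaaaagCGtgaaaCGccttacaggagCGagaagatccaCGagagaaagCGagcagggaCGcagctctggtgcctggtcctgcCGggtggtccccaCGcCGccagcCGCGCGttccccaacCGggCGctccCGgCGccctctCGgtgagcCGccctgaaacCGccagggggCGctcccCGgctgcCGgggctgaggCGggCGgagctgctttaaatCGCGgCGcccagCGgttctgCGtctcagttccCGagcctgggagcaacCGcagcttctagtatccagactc
CDC20: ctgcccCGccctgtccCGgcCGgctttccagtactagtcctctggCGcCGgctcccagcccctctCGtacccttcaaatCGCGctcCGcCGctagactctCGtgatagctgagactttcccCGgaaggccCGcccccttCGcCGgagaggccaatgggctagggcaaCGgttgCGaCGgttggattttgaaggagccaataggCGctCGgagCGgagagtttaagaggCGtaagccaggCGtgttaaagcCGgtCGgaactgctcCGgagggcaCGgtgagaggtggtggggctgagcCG
LCN2: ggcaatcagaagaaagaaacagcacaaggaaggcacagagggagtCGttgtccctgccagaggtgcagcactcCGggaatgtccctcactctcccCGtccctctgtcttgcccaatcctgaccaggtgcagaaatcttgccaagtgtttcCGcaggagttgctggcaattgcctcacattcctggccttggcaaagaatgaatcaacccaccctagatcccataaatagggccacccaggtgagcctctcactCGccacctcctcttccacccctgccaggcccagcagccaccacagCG
ESR1: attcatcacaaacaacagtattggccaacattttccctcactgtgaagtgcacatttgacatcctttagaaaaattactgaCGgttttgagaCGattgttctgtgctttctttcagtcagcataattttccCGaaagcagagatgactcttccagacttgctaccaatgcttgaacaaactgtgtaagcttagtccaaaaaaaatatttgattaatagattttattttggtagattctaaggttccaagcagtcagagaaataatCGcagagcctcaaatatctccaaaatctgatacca
CLDN1 and CDC20, at percentiles of 99.1 and 98.6, have dense CpG in the printed window. The printed window of ESR1, not above background, has few. A single window stands for each gene, so promoters at any other start site, of ESR1 or of other genes, were not examined. LCN2, at 98.6, is as bright as CDC20 with 6 CpG, so the relation over all genes does not hold for each one.

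**Figure D3:**
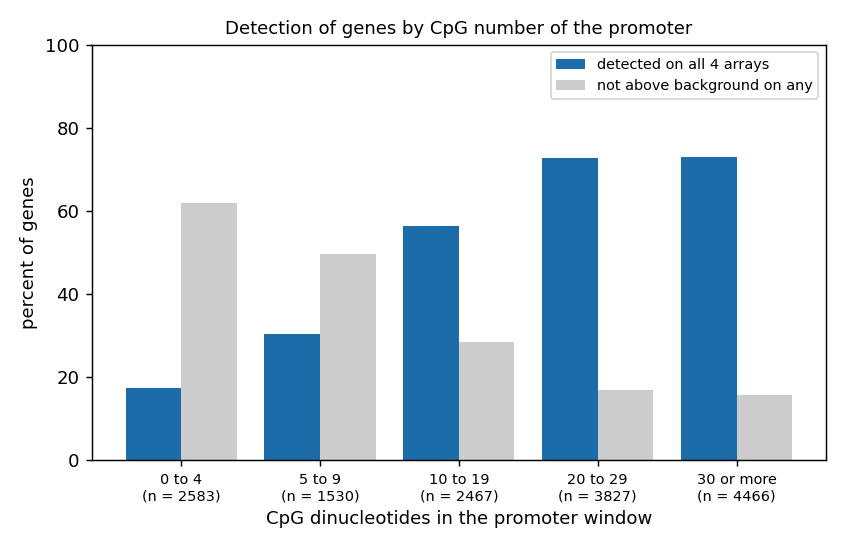
Percent of genes (vertical axis) detected on all 4 saline arrays, and not above background on any, by the number of CpG dinucleotides in the 300-base promoter window (horizontal axis, n genes in each class). The detected share climbs to 73.0% in the CpG-richest class, while the share not above background drops to 15.8%.

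The spread between the 4 arrays was measured as the SD of log2 signal after background correction and quantile normalization. Its median over the 15649 detected probes was 0.201, with 5% of probes below 0.068 and 5% above 0.482. It fell with the signal, with a median of 0.293 in the dimmest of 5 equal classes and 0.144 in the brightest. An SD above 0.5 was found for 659 probes (4.21%) and above 1 for 2. Among these 659, the 2 brightest arrays were saline 1 and 3 for 228 (34.6%) and saline 2 and 4 for 184 (27.9%), and each other pair for 6.53% to 11.2%. Among all detected probes the same pairs led with 21.8% and 22.7%, and the other 4 pairs took 12.7% to 15.5%. What saline 1 and 3, or saline 2 and 4, had in common, the labels do not say.

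The 20 probes of largest SD with a mean percentile of at least 75 were mostly dim within that range, and 17 of them lay between the percentiles of 75.2 and 82.7, led by RIOK1, a kinase of ribosome assembly, at log2 signals of 7.88, 8.15, 6.77 and 8.70 on saline 1 to 4 (SD 0.81) and MCM7, a helicase subunit, at 7.19, 8.54, 7.32 and 8.71 (SD 0.80). Both genes have a brighter probe, at mean percentiles of 87.1 for RIOK1 and 98.5 for MCM7. The 3 above the 90th percentile were HBA2 and 2 genes of the acute-phase and antimicrobial list, DEFB1 and PIGR. DEFB1 was at 12.10, 13.59, 12.90 and 13.68 (SD 0.73). PIGR was at 9.60, 11.03, 10.42 and 11.08 (SD 0.69). Members of the same list with a smaller SD, outside the 20, were LCN2 at 12.57, 13.94, 13.88 and 13.82 (SD 0.65) and PI3 at 10.15, 11.37, 11.37 and 10.74 (SD 0.59). DEFB1, PIGR, LCN2 and PI3 were all lowest on saline 1. HBA2, with an SD of 0.78, was instead lowest on saline 3, at 11.63, against 12.64 to 13.38 on the other arrays. Quiet genes at like signals included PAX8, at 12.38, 12.47, 12.49 and 12.49 (SD 0.05), and PRAME, at 10.32, 10.28, 10.30 and 10.33 (SD 0.02).

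**Figure D4:**
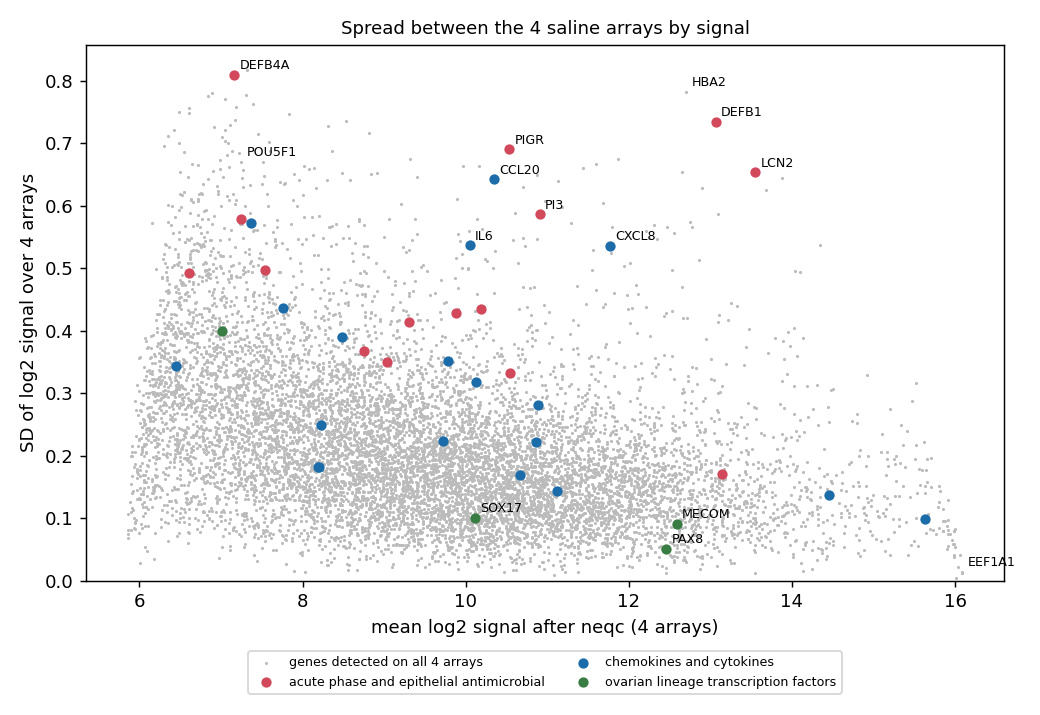
SD of log2 signal over the 4 saline arrays (vertical axis) against the mean log2 signal (horizontal axis) for each gene detected on all 4. Red acute-phase and antimicrobial genes such as DEFB1 (0.73), PIGR (0.69) and LCN2 (0.65) lie above most genes of like signal. Of the green lineage factors, PAX8 (0.05), MECOM (0.09) and SOX17 (0.10) lie near the bottom, and the dimmer MEIS1 lies higher (0.40).

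The acute-phase and antimicrobial genes varied more than most genes and shared a low level on saline 1. The median SD of the 15 detected members was 0.49, against 0.188 for all detected genes. Without background correction it was 0.33, against 0.135. On saline 1, 14 of the 15 detected members lay below the median deviation of all genes, which by construction has 50.0% of genes below it. The lists and arrays given such counts, here and below, were picked from many lists on 4 arrays after their values were seen. The 50.0% is therefore a point of reference, and the counts are not tests. The list's median deviation from the gene means was -0.51 on saline 1, 0.34 on saline 2, 0.09 on saline 3 and 0.06 on saline 4. The size depended on the processing: on saline 1 and 2 it was -0.32 and 0.19 without background correction, and -0.31 and 0.18 in the authors' normalized table. LBP was the 1 member not below, with its low value on saline 3 instead. Saline 1 was the lowest of the 4 arrays for 13 of the 15, against 24.3% of all genes. The highest array was not shared, being saline 2 for 6 members, saline 3 for 5 and saline 4 for 4.

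Cholesterol and fatty acid synthesis genes were also low on saline 1, by less. On saline 1, 19 of the 20 detected lay below the median of all genes (50.0% over all genes), with a median deviation of -0.30, against 0.05, 0.20 and 0.00 on saline 2, 3 and 4. HMGCS1, an early enzyme of the pathway, was at 12.52, 13.17, 13.54 and 13.19, INSIG1, a sensor that restrains it, at 11.22, 11.96, 11.84 and 11.97, and the desaturase SCD at 12.66, 13.39, 13.20 and 12.92. STARD4, a cholesterol carrier, was the exception, at 6.76, 5.90, 6.71 and 5.79. Of the 7 detected metallothioneins, which bind zinc and copper, 5 lay above the median of all genes on saline 1 and 2 lay below it. With only 7 members, this share is not set apart from the 50.0% over all genes. Among those above were MT2A at 13.80, 13.42, 12.86 and 12.92 and MT1X at 11.50, 11.03, 10.68 and 11.06.

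The chemokine and cytokine genes were low on saline 4. There, 16 of the 19 detected lay below the median of all genes (50.0% over all genes), with a list median of -0.22, against -0.04, 0.16 and 0.09 on saline 1, 2 and 3. CXCL8 was at 11.95, 12.08, 12.08 and 10.97, CCL20 at 10.02, 10.87, 10.90 and 9.60, IL6 at 9.70, 10.46, 10.55 and 9.48, and CCL2 at 7.03, 7.68, 8.0 and 6.76. All 4 were lowest on saline 4, and CXCL8 stood apart there while CCL20, IL6 and CCL2 were also low on saline 1. On the same array 26 of 30 proliferation genes and 20 of 28 hypoxia and glycolysis genes lay above the median of all genes (50.0% over all genes), with list medians of 0.13 and 0.10. Neither list moved on saline 4 alone. On saline 1, 23 of the 30 proliferation genes lay below the median of all genes, and on saline 3, 19 of the 28 hypoxia and glycolysis genes did. Since a gene's deviations sum to 0 over the 4 arrays, these shifts are not independent. Of the 18 detected antigen-presentation genes, 8 were lowest on saline 4, against 28.1% of all genes, and 3 were highest there, among them HLA-DMA at 11.35, 11.81, 12.08 and 12.55. Whether animal, dissection, time or array accounts for these shared shifts cannot be told apart, since each array is 1 sample.

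**Figure D5:**
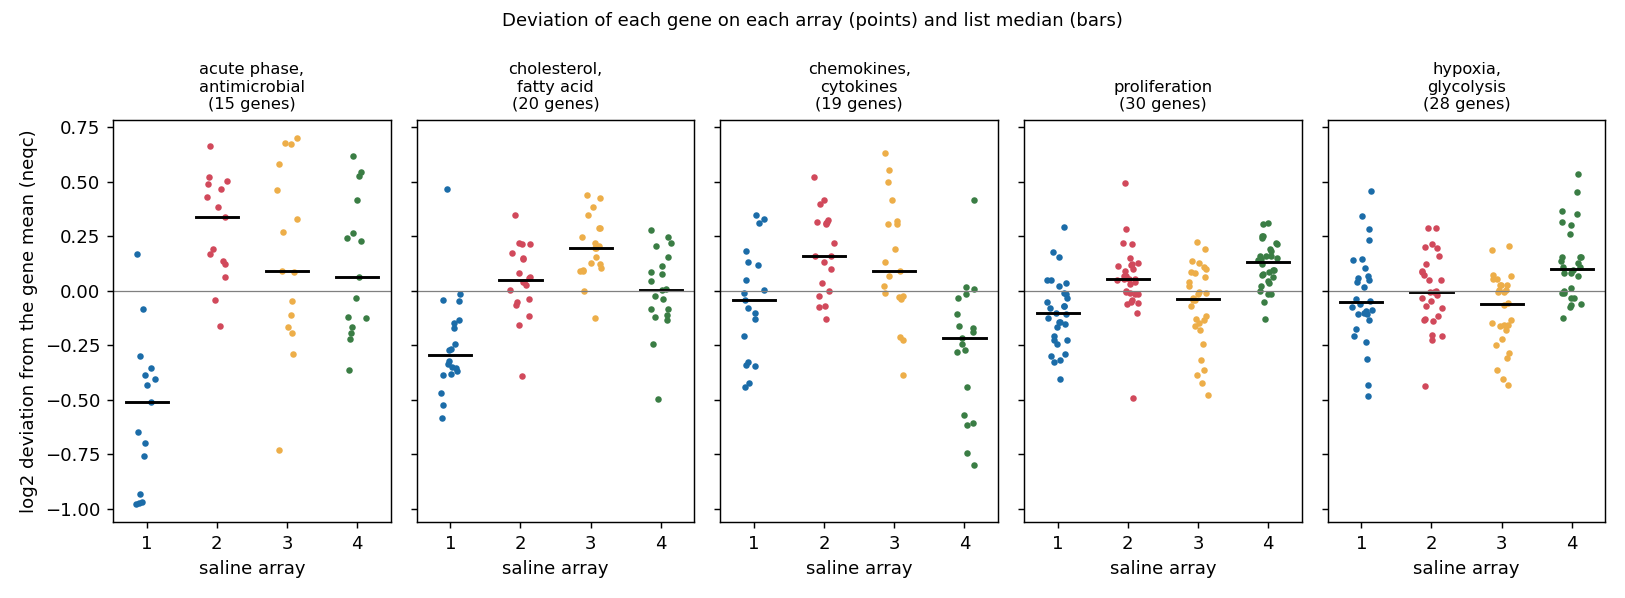
Log2 deviation of each detected gene from its own mean over the 4 arrays (vertical axis) on each saline array (horizontal axis), for 5 gene lists, with a bar at the list median. The acute-phase genes centre on -0.51 on saline 1 and the chemokine and cytokine genes on -0.22 on saline 4. The medians of the proliferation and hypoxia lists keep within about 0.13 of 0 on every array.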

How the data were processed

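RNA of IGROV-1 tumor cells was measured on 1-colour Illumina bead arrays. The main table of the authors holds deposited intensity values, an average signal for each probe, labelled as non-normalized per the file headers. Its lowest values stay far above 0, so no background had been subtracted. A deposited detection p-value stands beside each signal. A table of intensity values that the authors normalized, by a method the labels do not name, served as an alternative. The submitters' processing notes mention BeadStudio.

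Percentiles were taken on the deposited signals of the 4 saline arrays, each array alone. For the spread, neqc in limma 3.58.1 under R 4.3.3 corrected the background (offset 16) and quantile-normalized these 4 arrays, and the SD was taken in Python 3.11.15. The SD computation was tested on simulated data. Names came from the platform annotation, updated through gene identifiers with the RefSeq table of GRCh38.p14 for 28059 of 28098 probes. With 1 group there is no contrast, so counts, ranks and SDs are descriptions and no p-values were computed. The small number of arrays sets the precision.

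The members and the 49 gene lists were chosen with earlier results of these data known. By the naming rule, the text takes genes from the 25 brightest, the 20 of largest and 10 of smallest SD above the 75th percentile, and from each list up to 8 of the brightest and up to 8 not above background, all detected members of a family, members whose probes disagree and the members of largest SD. A few others are named to complete a list or to show where a list moved, after their values were seen. Alternatives changed the detection threshold, the number of arrays required, the probe that stands for a gene, the background correction and the normalization, and left out each array in turn.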

Additional observations from a re-analysis of the deposited data

Results flagged for a closer look

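In 151 groups of 4 values, the mean signal, the number of detected probes and the log2 signals of 149 genes, 13 had 1 array whose gap to its nearest neighbour, as a share of the whole range, passed Dixon's critical value. Chance flags about 1 in 20 such groups when they are picked without regard to their values. The genes here were named partly for their spread on these same arrays, and genes on the same array are not independent. The 13 flags therefore cannot be set against that rate. The mean signal of saline 1 was highest at 1079, against 876 to 906 on the others (gap 0.852 of the range).

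Saline 1 was the low array for 6 genes. The antimicrobial protein LCN2 was at a log2 signal of 12.57 there and at 13.82 to 13.94 on the others (0.913). S100A9, a calcium-binding protein of inflammation, was at 9.54 and at 10.32 to 10.45 on the others (0.854). INSIG1, a regulator of cholesterol synthesis, was at 11.22 and at 11.84 to 11.97 (0.832). IFIT1, an interferon-response gene, was at 8.27 and at 8.87 to 8.95 (0.868). CDKN1A, a cell-cycle inhibitor, was at 12.07 and at 12.17 to 12.19 (0.834), and the mitotic gene CDC20 at 13.23 and at 13.43 to 13.47 (0.835), so both differences were small.

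Saline 4 was low for the chemokine CXCL8, at 10.97 and at 11.95 to 12.08 on the others (0.881), and high for the nucleotide enzyme TYMS, at 13.11 and at 12.91 to 12.92 (0.942). Saline 2 was low for AKT1, at 12.78 and at 13.07 to 13.10 (0.907), and for CCND1, at 14.06 and at 14.15 to 14.16 (0.924). Saline 3 was low for UBE2C, at 12.82 and at 13.004 to 13.04 (0.844), and for the endothelial cadherin CDH5, at 8.65 and at 9.04 to 9.08 (0.922).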

How the results depend on the processing

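No paired analysis was possible because there is 1 group and no contrast. The detected probes numbered 10004 at a detection p under 0.001, against 15649 at 0.05. Of 49 list counts, 40 stayed within 1.5 times at p under 0.01 and 43 when 3 of 4 arrays sufficed. At 0.01 the counts were 4 for fibroblast, 3 for mesothelial, 2 for endothelial, 2 for neuronal, 2 for germ cell, 1 for neutrophil, 1 for skeletal muscle, 1 for melanocyte and 0 for trophoblast markers. With 3 of 4 arrays they were 8 for cancer-testis antigens, 3 for trophoblast, 2 for Toll-like receptors (TLR5 added), and 1 each for intestinal, lung or thyroid, and breast or prostate markers. Leaving out each array in turn gave 1 to 2 Toll-like receptors, 1 to 2 trophoblast markers and 0 to 1 intestinal, lung or thyroid, and breast or prostate markers; with saline 1 left out each of these took its higher value.

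The median SD was 0.134 without background correction, 0.133 in the authors' table, 0.241 with median scaling, 0.260 over probes detected on at least 1 array and 0.182 to 0.198 with an array left out. The lowest pairwise correlation was 0.981 on normalized values. Median scaling put the median deviation of all genes at 0.20 on saline 1 and at -0.12 on saline 4. The list counts are therefore taken relative to all genes, while the list medians are deviations from the gene means. The pairs of list and array that follow were chosen after seeing the data. The other normalizations gave 14 acute-phase and 19 cholesterol genes below the median of all genes on saline 1. On saline 4 they gave 15 to 16 chemokine and cytokine genes below it, and 25 to 26 proliferation and 20 to 22 hypoxia genes above it. Leaving out another array gave, in the same order, 14 to 15, 17 to 19, 15 to 17, 24 to 25 and 19 to 21. The counts held, but the acute-phase list's median shift on saline 1 was -0.32 without background correction, against -0.51 with it. Percentiles of 149 named genes moved by less than their SD over the arrays in the authors' table. They moved by up to 53.9 points when all probes of a gene were averaged and, by construction, by up to 60.6 when ranked among detected probes alone. Across 7 alternative rankings, 69 to 100 of the 100 brightest named genes stayed among the 100 brightest.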
